A study of Mus musculus with 6 samples.

Results

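Chemokines are small secreted or membrane-anchored proteins that guide leukocytes, and their receptors are G protein-coupled receptors carried mainly by those leukocytes. The group described here holds every gene of the deposited table whose mouse symbol begins with Ccl, Ccr, Cxcl, Cxcr or Ackr and a number, together with Cx3cl1, Cx3cr1, Xcl1, Xcr1 and Ccrl2. The choice was made by name alone, without an expression filter, and gave 64 of 55401 gene IDs. They are 23 CC ligands, 13 CXC ligands, Cx3cl1 and Xcl1, 11 CC receptors, 6 CXC receptors, Cx3cr1 and Xcr1, 5 atypical receptors and 2 pseudogenes.

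The series holds 6 RNA libraries of whole mouse kidney, 3 labelled DKD (diabetic kidney disease) and 3 labelled Control. The labels give DKD or Control under genotype, and give no strain, allele, age, sex or way in which diabetes arose, so what the groups share beyond the tissue is not known here. No label states that every library came from its own animal, so the p-values reflect only how far these libraries differ, which may be partly technical. The stated purpose of the series was a transcript profile of HMTs, an abbreviation its text leaves unexplained, and the chemokine system was not its stated subject.

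Chemokine ligands fall into families by the spacing of their first cysteines, written CC, CXC, CX3C and C. CC ligands such as CCL2 and CCL5 draw monocytes, macrophages and T cells, CXC ligands of the CXCL1 type draw neutrophils, and CXCL9, CXCL10 and CXCL11 are induced by interferon-gamma and act on CXCR3 of activated T and NK cells. In the kidney, injured tubules and endothelium make ligands, while resident macrophages and infiltrating cells carry receptors such as CX3CR1 and CCR2. Atypical receptors bind chemokines without the usual G protein signal and clear or store them. In RNA of a whole organ, fewer cells of a type and less RNA per cell cannot be told apart.

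Library totals ran from 71588579 to 77417638 counts in DKD and from 64816622 to 72845799 counts in control kidneys. DKD replicate 1 stood apart from its group: across genes its median correlation of log2 CPM was 0.943 with the other DKD libraries and 0.960 with the controls. It also held hepatocyte transcripts, with a summed level over 15 hepatocyte genes of 4459 CPM, against 380 and 463 CPM in DKD replicates 2 and 3 and 237 to 339 CPM in controls. CPM is the count of a gene scaled to the effective size of its library. Results are given with and without this library where they rest on it. Kidney identity was present in every library, with 10 proximal tubule markers summing to 8184 to 11470 CPM in DKD and 13070 to 13950 CPM in control kidneys.

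Of the 64 genes, 60 had at least 1 count in some library and 40 had a count in every library. Ccl1, Ccl24, Ccl26 and Cxcr1 had no count in any of the 6 libraries, where a count of 0 allows up to 3 counts, or 0.0354 to 0.0394 CPM in DKD and 0.0423 to 0.0505 CPM in control libraries. A low count filter left 44 genes for testing, and 16 genes with counts were not tested. A gene that passed that filter only because it was high in one group had to differ, so counts over the tested genes are descriptions. DKD replicate 1 had 20 of the 64 genes at 0, DKD replicates 2 and 3 had 8 each, and the controls had 19, 16 and 14.

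The promoters of the 5 tested protein-coding genes whose DKD and control values did not overlap are shown, because these are the tested members that stood above all controls in every DKD kidney. Sequences are from RefSeq on GRCm38.p6, a build other than the GRCm39 named for the counts, and run from 250 bases before to 50 bases after the start of the gene, 5′ to 3′ on the strand of the gene. Capitals mark matches on either strand to 3 patterns: the interferon regulatory factor (IRF) pattern, which is GAAA, 2 further bases of any kind and GAAA, the STAT pattern TTCNNNGAA, which reads the same on both strands, and the NF-kappaB consensus.
Cxcl9, chr5:92328030-92328329, minus strand: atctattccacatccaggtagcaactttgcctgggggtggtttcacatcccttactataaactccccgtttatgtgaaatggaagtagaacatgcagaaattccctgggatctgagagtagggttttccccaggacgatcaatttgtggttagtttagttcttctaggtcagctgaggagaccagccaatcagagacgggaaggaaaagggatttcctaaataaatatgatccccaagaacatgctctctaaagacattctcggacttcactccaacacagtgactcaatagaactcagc
Cxcl10, chr5:92348840-92349139, minus strand: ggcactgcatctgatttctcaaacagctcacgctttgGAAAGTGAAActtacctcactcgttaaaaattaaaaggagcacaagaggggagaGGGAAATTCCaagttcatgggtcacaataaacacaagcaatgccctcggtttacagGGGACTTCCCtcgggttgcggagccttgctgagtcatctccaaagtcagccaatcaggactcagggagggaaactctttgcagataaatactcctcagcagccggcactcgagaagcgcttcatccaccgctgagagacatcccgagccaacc
Cxcl14, chr13:56296502-56296801, minus strand: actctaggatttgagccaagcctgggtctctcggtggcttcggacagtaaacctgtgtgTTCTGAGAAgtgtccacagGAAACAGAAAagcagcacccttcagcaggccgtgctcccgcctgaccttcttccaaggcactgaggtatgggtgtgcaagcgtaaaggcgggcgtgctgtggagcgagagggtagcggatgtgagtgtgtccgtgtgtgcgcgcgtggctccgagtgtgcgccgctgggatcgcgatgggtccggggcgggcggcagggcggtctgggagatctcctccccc
Ccl9, chr11:83578587-83578886, minus strand: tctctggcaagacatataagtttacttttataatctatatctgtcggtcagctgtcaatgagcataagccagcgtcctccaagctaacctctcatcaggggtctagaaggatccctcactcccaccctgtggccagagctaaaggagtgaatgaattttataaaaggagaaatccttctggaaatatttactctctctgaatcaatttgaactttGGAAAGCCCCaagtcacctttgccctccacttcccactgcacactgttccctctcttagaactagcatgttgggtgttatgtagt
Cx3cl1, chr8:94771930-94772229, plus strand: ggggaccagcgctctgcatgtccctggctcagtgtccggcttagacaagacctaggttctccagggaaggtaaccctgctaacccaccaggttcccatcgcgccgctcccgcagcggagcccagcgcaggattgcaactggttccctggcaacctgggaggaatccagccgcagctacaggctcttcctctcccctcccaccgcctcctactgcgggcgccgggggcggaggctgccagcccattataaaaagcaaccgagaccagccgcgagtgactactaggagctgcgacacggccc

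Cxcl10 held 1 IRF match and 2 NF-kappaB matches, Cxcl14 held 1 IRF and 1 STAT match that do not overlap, and Ccl9 held 1 NF-kappaB match. No match to these letters stood in the windows of Cxcl9 and Cx3cl1. Among all 32851 promoters of this length, 3.44% held the IRF pattern, 8.3% the STAT pattern and 4.51% the NF-kappaB consensus. The table had 56 promoters for 47 of the 64 genes, of which 3 held the IRF pattern, 4 the STAT pattern and 11 the NF-kappaB consensus. The IRF pattern was in Ccl19, Cxcl10 and Cxcl14, and the NF-kappaB consensus was in the neighbouring genes Cxcl1, Cxcl2 and Cxcl3, among others. In Cxcl1, Cxcl2, Cxcl3 and Ccr6 a pair of NF-kappaB matches overlap each other, shifted by 1 base. A match is a run of letters and not a measured binding site.

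The comparison of DKD with control kidneys asked which chemokine and receptor transcripts differ. Most ligands and several leukocyte receptors lay higher in DKD replicates 2 and 3 than in every control, while DKD replicate 1 lay among or below the controls for most of them. Both of those DKD kidneys exceeded all controls for 24 of 44 tested genes (54.5%), where the share over all genes tested was 27.4%. For 0 genes were both below all controls, against 23.6% over all genes. Of the same 24 genes, DKD replicate 1 was above all controls for 6, within their range for 9 and below it for 9.

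With the quasi-likelihood test of edgeR on all 6 libraries, 0 of 44 genes passed an adjusted p of 0.05, as did 0 (0%) of the 19197 genes tested. The smallest adjusted p of a member was 0.103 with edgeR. Before adjustment, 9 of 44 (20.5%) had p below 0.05 in edgeR and all of these were higher in DKD, against 12.2% of all genes higher and 7.05% lower. In 6 of 44 genes (13.6%) the lowest DKD value in CPM exceeded the highest control value, and in 0 the reverse held, against 13.8% higher and 11.5% lower over all genes, so that share is at the background. The fitted level was higher in DKD for 35 of 44 genes (79.5%), against 52.4% of all genes, and the median log2 difference was 0.78, against 0.02 over all genes. Without the low count filter, 60 genes had a fitted value, 49 higher and 11 lower, with a median of 0.95.

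The calls depended on the test and on DKD replicate 1. DESeq2 called 7 of 44 genes higher (15.9%, against 6.22% of all genes higher and 2.89% lower), and limma-voom with sample quality weights called 8 (18.2%, against 9.94% higher and 7.75% lower). In edgeR without DKD replicate 1, 16 of 48 genes rose (33.3%, against 9.67% of all genes higher and 5.84% lower) and 0 fell, with a median log2 difference of 1.19 against 0.02 over all genes. The 16 include Ccl8 and Cxcl17, which did not pass the low count filter with all libraries and passed it there only through the high DKD kidneys. Of the 44 genes tested in both fits, 14 rose (31.8%). Each of the other leave-one-out fits called 0 of these genes. Ccl2, Ccl9, Cxcl9, Cxcl10 and Cxcl14 were among those called by DESeq2, by limma-voom and by edgeR without DKD replicate 1, fits that share most of their libraries and are not independent.

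**Figure D1:**
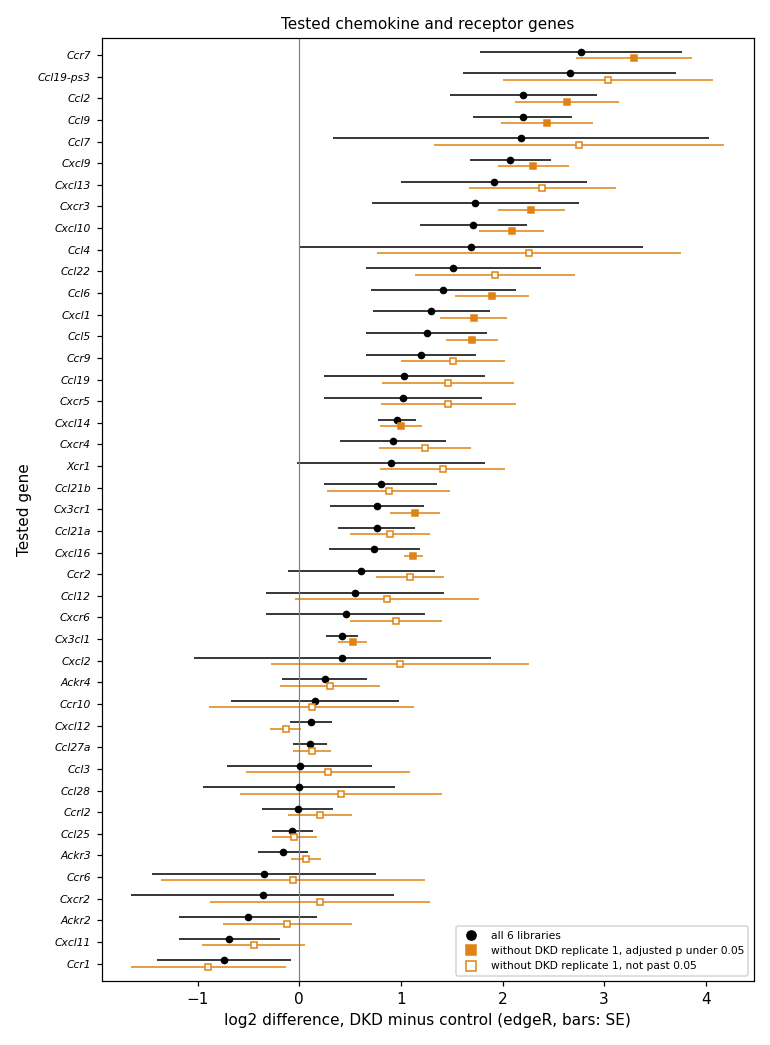
Log2 difference of DKD minus control for tested genes (edgeR, horizontal bars are SE), with all 6 libraries as black circles and without DKD replicate 1 as orange squares, which are filled where the adjusted p without it was below 0.05. Differences with all libraries ran from -0.74 for Ccr1 to 2.77 for Ccr7, and most squares lie to the right of their circles.

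Of 23 CC ligands 15 were tested with all libraries, and the fitted level was higher in DKD for 13 and lower for 2, with a median log2 difference of 1.03. Among them Ccl9 alone was above every control in every DKD kidney. Ccl9, a rodent ligand of CCR1, had 1.84, 2.87 and 4.08 CPM in DKD and 0.303, 0.682 and 0.917 CPM in control kidneys. The groups did not overlap, and the log2 difference was 2.20 ± 0.49 (SE; edgeR adjusted p = 0.113, 0.0152 without DKD replicate 1). Ccl2, the ligand that recruits CCR2-bearing monocytes, had 0.630, 3.24 and 2.75 CPM in DKD and 0.168, 0.636 and 0.621 CPM in control kidneys. DKD replicates 2 and 3 were high and DKD replicate 1 lay within the controls. Its log2 difference was 2.21 ± 0.72 (SE; edgeR adjusted p = 0.180, 0.0180 without DKD replicate 1).

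Ccl5, a ligand made by T cells and other cells, had 0.644, 3.37 and 3.57 CPM in DKD and 1.01, 1.24 and 0.931 CPM in control kidneys. Ccl6, a rodent ligand of CCR1, had 0.644, 3.57 and 5.41 CPM in DKD and 1.60, 1.26 and 0.748 CPM in control kidneys. For both genes DKD replicate 1 was the lowest of all 6 libraries while the other DKD kidneys were the highest, so the groups overlapped. The log2 differences were 1.25 ± 0.60 for Ccl5 and 1.42 ± 0.71 for Ccl6 (SE; edgeR adjusted p = 0.2996 and 0.320), and 1.70 ± 0.26 and 1.90 ± 0.37 without DKD replicate 1 (SE; edgeR adjusted p = 0.00865 and 0.0177).

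Ccl8, a further CC ligand of the Ccl2 neighbourhood named here after its values were seen, did not pass the low count filter with all libraries. It had 0, 192 and 121 counts in DKD replicates 1 to 3 and 0, 8 and 0 counts in control replicates 1 to 3. It entered the test without DKD replicate 1 only through its counts in the other DKD kidneys, so its call there is not support for a difference. Ccl7 had 0, 87 and 39 counts in DKD and 0, 0 and 24 counts in control kidneys, and was not called in any fit.

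The ligands that direct dendritic cells and lymphocytes in lymphoid tissue did not pass the test in any fit. Ccl19, a ligand of CCR7, had 0.368, 2.41 and 1.07 CPM in DKD and 0.185, 0.742 and 0.945 CPM in control kidneys. Ccl21a, also a ligand of CCR7, had 2.86, 5.74 and 2.23 CPM in DKD and 2.02, 1.88 and 2.48 CPM in control kidneys. Ccl21b had 0.933, 1.61 and 0.660 CPM in DKD and 0.337, 1.05 and 0.451 CPM in control kidneys. The groups overlapped for all 3 genes, with DKD replicate 2 the highest library in each. Ccl21a and Ccl21b are near-identical copies, and so are Ccl19 and its pseudogenes, so how reads were divided among them is uncertain. The 6 lymphatic endothelial markers, a cell type that makes CCL21, summed to 28.7 to 32.0 CPM in DKD and 19.0 to 19.5 CPM in control kidneys, and their part was not tested. Ccl19-ps3 had 15, 38 and 70 counts in DKD and 7, 8 and 0 counts in control kidneys, without overlap between groups (edgeR adjusted p = 0.233).

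Ccl25, known from thymus and small intestine as the ligand of CCR9, had 6.54, 7.84 and 5.99 CPM in DKD and 5.71, 7.85 and 7.77 CPM in control kidneys. Ccl27a, known from skin as a ligand of CCR10, had 7.64, 8.62 and 7.64 CPM in DKD and 8.40, 6.26 and 7.56 CPM in control kidneys. Their log2 differences were -0.07 ± 0.20 and 0.11 ± 0.17 (SE; edgeR adjusted p = 0.876 and 0.759), within the spread between kidneys. Exons of Ccl25 overlap those of the antisense gene Elavl1 by 204 bases. Elavl1 averaged 46.2 CPM in DKD and 50.4 CPM in control kidneys, and its part in the value of Ccl25 was not tested. Ccl28, a mucosal ligand of CCR10, had 4.36, 20.3 and 15.8 CPM in DKD and 12.3, 26.1 and 2.05 CPM in control kidneys. Its controls spanned a wider range than any difference between groups, and its mean was 13.5 ± 8.23 CPM in DKD and 13.5 ± 12.1 CPM in control kidneys (SD, n = 3 each).

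Of 13 CXC ligands 9 were tested, and the fitted level was higher in DKD for 8 and lower for Cxcl11, with a median log2 difference of 0.96. Cxcl9, Cxcl10 and Cxcl11 share the receptor CXCR3. Cxcl9 had 4.37, 8.80 and 7.36 CPM in DKD and 1.08, 1.35 and 2.44 CPM in control kidneys. Cxcl10 had 7.13, 20.3 and 27.3 CPM in DKD and 3.20, 6.52 and 6.98 CPM in control kidneys. For both genes all DKD values exceeded all control values, although Cxcl10 of DKD replicate 1 exceeded the highest control by little. Cxcl11 had 0.420, 0.506 and 1.08 CPM in DKD and 0.656, 1.5 and 1.09 CPM in control kidneys, so its groups overlapped with the lower values in DKD. The log2 differences were 2.07 ± 0.40 for Cxcl9, 1.71 ± 0.52 for Cxcl10 and -0.69 ± 0.50 for Cxcl11 (SE; edgeR adjusted p = 0.103, 0.1702 and 0.477). Without DKD replicate 1, Cxcl9 rose by 2.30 ± 0.35 and Cxcl10 by 2.09 ± 0.32 (SE; edgeR adjusted p = 0.00866 and 0.00886), and Cxcl11 gave -0.45 (adjusted p = 0.601). The reference places these 3 genes side by side on chromosome 5. In that annotation 1582 bases of Cxcl11 exons overlap the antisense gene Gm2673, and 133 bases of Cxcl10 exons overlap Art3. Since the strand setting of the counting is not known here, reads in such stretches cannot be assigned to one gene.

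Cxcl14, a ligand made by epithelia and fibroblasts, had 10.5, 11.0 and 12.4 CPM in DKD and 6.93, 4.61 and 5.85 CPM in control kidneys. DKD replicate 1 lay with the other DKD kidneys, and the log2 difference of 0.96 ± 0.19 (SE; edgeR adjusted p = 0.103) became 1.00 ± 0.21 without it (adjusted p = 0.0220). The 10 fibroblast and mural markers summed to 245 to 322 CPM in DKD and 128 to 169 CPM in control kidneys, and their part in the value of Cxcl14 was not tested. Cx3cl1, fractalkine, a membrane-anchored ligand of endothelium and tubules that binds CX3CR1, had 63.4, 72.5 and 91.5 CPM in DKD and 56.9, 50.4 and 62.6 CPM in control kidneys. All DKD values stood above all controls, DKD replicate 1 by less than 1 CPM. Its log2 difference was 0.42 ± 0.15 (SE; edgeR adjusted p = 0.210, 0.0464 without DKD replicate 1).

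Cxcl16, a membrane-anchored ligand of CXCR6, had 16.8, 59.2 and 57.1 CPM in DKD and 27.7, 25.2 and 26.9 CPM in control kidneys. The controls were close together, DKD replicates 2 and 3 were far above them and DKD replicate 1 was below them. The log2 difference was 0.74 ± 0.44 with all libraries (SE; edgeR adjusted p = 0.401) and 1.12 ± 0.09 without DKD replicate 1 (SE; adjusted p = 0.00144), the smallest adjusted p of any member in that fit. Exons of Cxcl16 overlap those of the antisense gene Zmynd15 by 552 bases, and Zmynd15 had a log2 difference of 1.39 (edgeR adjusted p = 0.247). Its part in the value of Cxcl16 was not tested.

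Cxcl12, the ligand of CXCR4 and of the atypical receptor ACKR3, had 133, 75.9 and 97.2 CPM in DKD and 97.4, 82.2 and 104 CPM in control kidneys. DKD replicate 1 was the highest of all libraries and DKD replicate 2 the lowest, and the log2 difference was 0.11 ± 0.21 (SE; edgeR adjusted p = 0.792). Cxcl1, a ligand of CXCR2 that draws neutrophils, had 0.630, 2.27 and 3.21 CPM in DKD and 0.606, 0.985 and 0.889 CPM in control kidneys. Its log2 difference was 1.30 ± 0.57 (SE; edgeR adjusted p = 0.273), with 1.72 ± 0.33 and an adjusted p of 0.0173 without DKD replicate 1. Its neighbours Cxcl2, Cxcl3 and Cxcl5 had at most 30 counts in any library. Cxcl17, named after its values were seen, had 2, 14 and 28 counts in DKD and 0 in every control, and it too entered the test without DKD replicate 1 only through the other DKD kidneys.

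**Figure D2:**
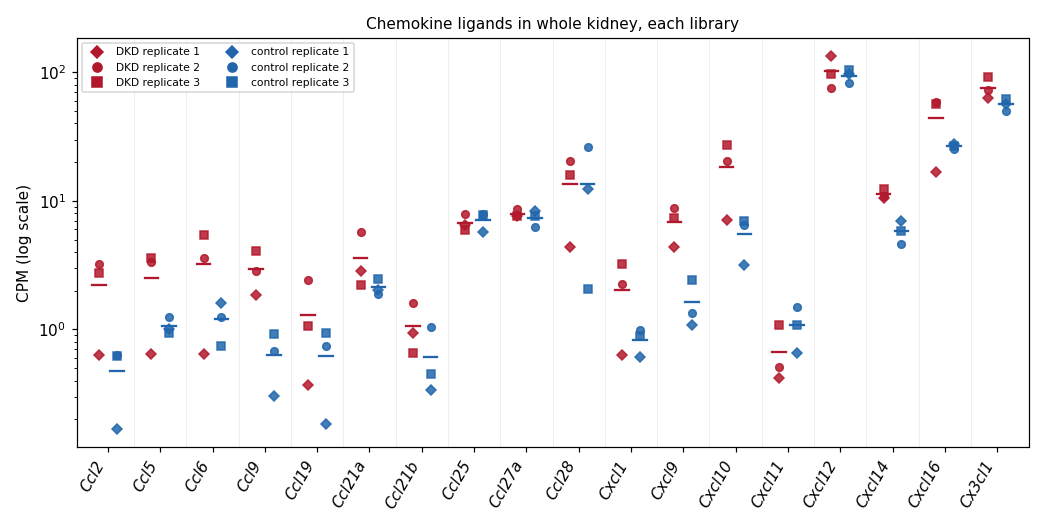
CPM on a log scale of the 18 tested ligands with a mean of at least 0.5 CPM, one mark per library and a horizontal line at each group mean. For Ccl5, Ccl6 and Cxcl16, DKD replicate 1 (diamond) is below all controls while DKD replicates 2 and 3 are above them, whereas for Ccl9, Cxcl9, Cxcl14 and Cx3cl1 all DKD marks are above all control marks.

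Levels between genes were compared per kb of exon, using exon lengths of the GRCm38 annotation. On that scale of CPM per kb, Cx3cl1 averaged 19.3 in DKD and 14.4 in control kidneys, Cxcl16 averaged 14.7 and Cxcl12 12.5 in DKD, and in control kidneys Cxcl12 averaged 11.6 and Cxcl16 8.79. In controls Cx3cl1 ran from 12.8 to 15.9 and Cxcl12 from 10.1 to 12.7, so these neighbours in the order did not overlap there, while Cxcl16 ran from 8.33 to 9.15. In DKD kidneys the same 3 genes overlapped, with Cx3cl1 at 16.1 to 23.3, Cxcl16 at 5.55 to 19.6 and Cxcl12 at 9.28 to 16.3. Among receptors, the atypical receptor Ackr3 averaged 13.8 CPM per kb in DKD and 15.4 in control kidneys, above Cxcr4, which averaged 3.06 in DKD and 1.62 in control kidneys.

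Of 11 CC receptors 7 were tested, with a higher fitted level in DKD for 5 and a lower one for 2 and a median log2 difference of 0.61. The macrophage receptors Ccr2 and Cx3cr1 were above all controls in DKD replicates 2 and 3 and below all controls in DKD replicate 1. Cx3cr1, the fractalkine receptor of renal macrophages, had 2.60, 8.75 and 8.72 CPM in DKD and 2.76, 4.55 and 4.50 CPM in control kidneys. It gave 0.76 ± 0.47 with all libraries (SE; edgeR adjusted p = 0.400) and 1.14 ± 0.25 without DKD replicate 1 (SE; adjusted p = 0.0257).

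Ccr2, the CCL2 receptor of inflammatory monocytes, had 1.51, 10.3 and 12.3 CPM in DKD and 3.03, 5.62 and 7.18 CPM in control kidneys. It did not pass the threshold in any fit (log2 difference 0.61 ± 0.72, SE; edgeR adjusted p = 0.673, 0.0684 without DKD replicate 1). Ccr1, a receptor of CCL6 and CCL9, had 0.499, 0.273 and 0.483 CPM in DKD and 0.320, 0.379 and 1.40 CPM in control kidneys. Control replicate 3 alone was high. The log2 difference was -0.74 ± 0.66 (SE; edgeR adjusted p = 0.564) with all libraries and 0.26 without that control.

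Of 6 CXC receptors 5 were tested, with a higher fitted level in DKD for 4 and a lower one for Cxcr2, and a median log2 difference of 0.92. Cxcr3, the receptor of CXCL9 and CXCL10 on activated T and NK cells, had 0.0919, 2.92 and 3.08 CPM in DKD and 0.539, 0.470 and 0.818 CPM in control kidneys. DKD replicate 1 held 7 counts of it, the fewest of any library, against 225 and 261 in the other DKD kidneys. The log2 difference was 1.73 ± 1.02 with all libraries (SE; edgeR adjusted p = 0.390) and 2.28 ± 0.33 without DKD replicate 1 (SE; adjusted p = 0.00725). Ccr7, the CCL19 and CCL21 receptor of naive T cells and mature dendritic cells, had 0.131, 1.96 and 1.67 CPM in DKD and 0.0842, 0.333 and 0.127 CPM in control kidneys. It had the highest log2 difference of the tested genes, 2.77 ± 0.99 (SE; edgeR adjusted p = 0.204, 0.0124 without DKD replicate 1).

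Cxcr6, the CXCL16 receptor of resident T and NK cells, had 0.276, 2.01 and 2.84 CPM in DKD and 0.791, 0.894 and 2.05 CPM in control kidneys. Xcr1, the XCL1 receptor of cross-presenting dendritic cells, had 0.145, 1.87 and 1.40 CPM in DKD and 0.185, 0.591 and 1.04 CPM in control kidneys. Cxcr4, the CXCL12 receptor, had 2.77, 3.97 and 9.84 CPM in DKD and 4.29, 2.03 and 2.44 CPM in control kidneys. None of these 3 passed the test in any fit run, and their groups overlapped. Without DKD replicate 3, the log2 difference of Cxcr6 was -0.12 and that of Cxcr4 was 0.21, against 0.46 and 0.92 with all libraries.

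The neutrophil receptors had few counts or none. Cxcr2, the receptor of CXCL1 and CXCL2, had 0, 4 and 30 counts in DKD and 10, 20 and 4 counts in control kidneys, and Cxcr1 had none. Ccr9, Ccr10 and Cxcr5 were tested at no more than 0.789 CPM in any library and were not called. Ccr3, Ccr4, Ccr8 and Ccr1l1 had at most 28 counts in any library and did not pass the low count filter with all 6 libraries. Ccl11, Ccl17, Ccl20, Ccl27b, Cxcl3, Cxcl5, Cxcl15, Xcl1 and Ccl19-ps1 likewise did not pass it, with at most 36 counts in any library. Ccl20, a ligand of CCR6 named after its values were seen, had 0, 17 and 13 counts in DKD and 0 in every control. The 14 tested genes with a mean under 0.5 CPM, which include Ccl3, Ccl4, Ccl12, Ccl22, Cxcl13 and Ccr6, had log2 differences of -0.50 to 2.66. Of these 14, Ccl19-ps3 alone had an unadjusted p below 0.05 in edgeR.

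The groups overlapped for each of the 4 atypical receptors tested, and 0 of 4 were called in any fit. Ackr3, which takes up CXCL12, had 29.9, 45.3 and 63.1 CPM in DKD and 50.3, 51.8 and 52.5 CPM in control kidneys. Its DKD kidneys spread to both sides of controls that lay close together, with a log2 difference of -0.16 ± 0.24 (SE; edgeR adjusted p = 0.747). Ackr4, which takes up CCL19, CCL21 and CCL25, had 0.499, 0.519 and 0.625 CPM in DKD and 0.438, 0.621 and 0.325 CPM in control kidneys. Exons of Ackr4 overlap those of the antisense gene Acad11 by 479 bases. Acad11 averaged 239 CPM in DKD and 292.5 CPM in control kidneys, and its part in the value of Ackr4 was not tested. Ccrl2, a receptor-like protein that binds chemerin, had 2.02, 4.01 and 3.17 CPM in DKD and 3.16, 2.09 and 4.03 CPM in control kidneys. Ackr2, which takes up inflammatory CC ligands, had 8, 15 and 48 counts in DKD and 29, 27 and 24 counts in control kidneys. Ackr1 had at most 8 counts in any library.

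**Figure D3:**
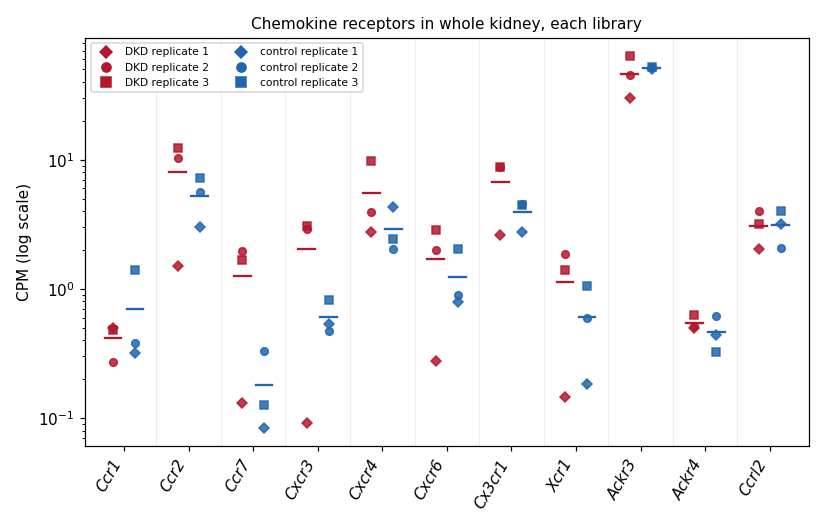
CPM on a log scale of 11 tested receptors with a mean of at least 0.5 CPM, one mark per library and a horizontal line at each group mean. DKD replicates 2 and 3 are above all controls for Ccr2, Ccr7, Cxcr3, Cx3cr1 and Xcr1, and DKD replicate 1 is the lowest library for Ccr2, Cxcr3, Cxcr6, Cx3cr1, Xcr1, Ackr3 and Ccrl2.

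Ligands and their receptors can be read side by side. In DKD replicates 2 and 3, Cxcl9 and Cxcl10 with Cxcr3, Ccl2 with Ccr2 and Cx3cl1 with Cx3cr1 were each above all controls on both sides of the pair. The same held for Ccl19 with Ccr7. Other pairs did not go together: Ccl6, Ccl9, Cxcl1 and Cxcl16 were above all controls in both of those kidneys, but their receptors Ccr1, Cxcr2 and Cxcr6 were not. Cxcl11, a further ligand of CXCR3, and Ccl21a and Ccl21b, further ligands of CCR7, were not above all controls in both. For Cxcl12, neither Cxcr4 nor Ackr3 was above all controls in both of those kidneys. In DKD replicate 1 the ligands of these pairs were mixed. Cxcl9, Cxcl10, Cxcl12, Cx3cl1, Ccl9 and Ccl21a were above all controls. Ccl2, Ccl19, Ccl21b and Cxcl1 were within the controls, and Ccl6, Cxcl11 and Cxcl16 were below them. Of the receptors, Ccr2, Cxcr2, Cxcr3, Cxcr6, Cx3cr1 and Ackr3 were below all controls there, and Ccr1, Ccr7 and Cxcr4 were within them. These are values of single libraries and no test was made of the difference between ligands and receptors.

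By position, 43 of the 64 genes fall into 10 runs of members within 1 Mb of the next one in the reference annotation. In the run of Ccl5, Ccl9, Ccl6, Ccl3 and Ccl4 on chromosome 11, 5 genes were tested, and DKD replicates 2 and 3 were both above all controls for 4 of them. In the run of 7 members around Ccl19, Ccl21a and Ccl27a on chromosome 4, that held for 2 of 5 tested. The share was 54.5% over all tested members and 27.4% over all genes tested. The other runs are not described here, and a part of position was not tested.

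Other genes of the pathway were read from lists chosen for their roles. Of 38 genes that carry the signal of chemokine receptors, all were tested, 33 had a higher and 5 a lower fitted level in DKD, and the median log2 difference was 0.53. None passed the threshold with all libraries in edgeR, with 14 higher and 2 lower at an unadjusted p below 0.05, against 12.2% of all genes higher and 7.05% lower. Without DKD replicate 1, 17 rose and 1 fell, against 9.67% of all genes higher and 5.84% lower. Tiam1, an exchange factor for Rac, had 4.32, 11.2 and 10.2 CPM in DKD and 3.11, 3.06 and 3.46 CPM in control kidneys, and Grk3, a kinase that desensitises receptors, averaged 13.9 ± 1.80 CPM in DKD and 9.54 ± 1.21 CPM in control kidneys (SD, n = 3 each). Ptk2b, a focal adhesion kinase, averaged 63.2 ± 3.49 CPM in DKD and 78.5 ± 4.62 CPM in control kidneys.

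Inducers of chemokine genes were partly below detection. Of 25 cytokines and transcription factors 17 were tested; 15 had a higher fitted level in DKD and 2 a lower one, with a median log2 difference of 0.49. With all libraries 0 passed, with 3 higher and 0 lower at an unadjusted p below 0.05 in edgeR, where the shares over all genes were 12.2% and 7.05%. Without DKD replicate 1, 6 rose and 0 fell, with shares over all genes of 9.67% and 5.84%. Irf7, a transcription factor of the interferon response, had 22.3, 85.7 and 85.4 CPM in DKD and 10.03, 9.33 and 8.66 CPM in control kidneys, without overlap (edgeR adjusted p = 0.106, 7.09e-05 without DKD replicate 1). Relb, an NF-kappaB subunit, had 4.35, 9.68 and 9.32 CPM in DKD and 2.88, 4.79 and 4.22 CPM in control kidneys. Il17a and Csf2 had no count, and Ifng had at most 0.259 CPM in any library.

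The 20 interferon response genes set beside the CXCR3 ligands all had a higher fitted level in DKD, with a median of 1.17. In edgeR 0 passed, with 11 higher and 0 lower at an unadjusted p below 0.05 (12.2% and 7.05% over all genes), and 12 rose without DKD replicate 1 (9.67% over all genes). Isg15, a ubiquitin-like interferon target, had 4.12, 9.77 and 10.9 CPM in DKD and 1.77, 1.71 and 1.14 CPM in control kidneys. Of 20 genes that anchor or process chemokines, 14 had a higher and 6 a lower fitted level (median 0.17), with 6 higher and 1 lower at an unadjusted p below 0.05, beside the same 12.2% and 7.05% over all genes, and none passed. Among them Sdc2, a heparan sulfate proteoglycan, averaged 111 ± 10.7 CPM in DKD and 166 ± 12.4 CPM in control kidneys, and Mmp14, a membrane protease, averaged 10.5 ± 4.06 CPM in DKD and 3.77 ± 0.62 CPM in control kidneys (SD, n = 3 each). Of 13 attractants and receptors named outside the rule, 11 were tested and 0 passed, with 9 higher and 2 lower fitted levels and 3 higher at an unadjusted p below 0.05, beside 12.2% over all genes. Csf1, the growth factor of macrophages, had 7.87, 18.6 and 24.4 CPM in DKD and 4.91, 7.94 and 9.47 CPM in control kidneys.

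Macrophage, dendritic cell, T and NK cell, and B and plasma cell markers moved with the chemokine genes across libraries. Adipocyte, endothelial, podocyte and hepatocyte markers were also raised in DKD replicates 2 and 3, but were not lowered in DKD replicate 1. The level of a list is the mean log2 CPM of its tested genes minus the control mean. For the 44 chemokine and receptor genes it was -0.37, 1.20 and 1.29 in DKD replicates 1 to 3 and -0.36, 0.15 and 0.21 in control replicates 1 to 3. For 16 macrophage and monocyte markers it was -0.44, 1.39 and 1.72 in DKD and -0.28, -0.04 and 0.31 in control kidneys, with summed levels of 196 to 374 CPM in DKD and 181 to 213 CPM in control kidneys. For 16 T and NK cell markers it was -0.20, 1.16 and 1.64 in DKD and -0.16, 0.11 and 0.05 in control kidneys, with sums of 9.29 to 33.7 CPM in DKD and 8.92 to 10.9 CPM in control kidneys. By this level DKD replicate 1 lay lower than every control in all 3 lists, and the other DKD kidneys above every control. For the chemokine list and the T and NK cell list, its gap to the lowest control was small. By summed CPM, DKD replicate 1 lay within the controls in all 3 lists, at 306, 196 and 9.29 CPM. Single markers in it were mixed: Cd68 and Cd8a were above every control, and Lyz2 and Cd8b1 were below.

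For 10 B and plasma cell markers the level was -0.79, 2.41 and 1.62 in DKD and -0.77, 0.69 and 0.08 in control kidneys, with sums of 8.64 to 302 CPM in DKD and 13.6 to 24.9 CPM in control kidneys, and Ighm gave most of the sum in DKD replicate 2. For 8 dendritic cell markers it was -0.44, 0.91 and 1.42 in DKD and -0.07, -0.29 and 0.35 in control kidneys, with sums of 12.8 to 32.7 CPM in DKD and 12.1 to 18.2 CPM in control kidneys. Most neutrophil markers were near the floor: 3 of 10 were tested, the sum was 1.41 to 3.52 CPM in DKD and 1.24 to 1.77 CPM in control kidneys, and Elane had no count. The level over those 3 was -0.51, 0.61 and 0.11 in DKD and 0.05, -0.17 and 0.11 in control kidneys. Csf3r, the most abundant of them, had 0.985, 1.95 and 2.88 CPM in DKD and 1.36, 0.955 and 0.973 CPM in control kidneys. For the 8 adipocyte markers the level over the 3 that were tested was 0.25, 0.96 and 1.97 in DKD and -0.20, 0.45 and -0.25 in control kidneys, with sums of 30.6 to 73.65 CPM in DKD and 23.45 to 30.9 CPM in control kidneys. Of these, Adipoq, Plin1 and Ucp1 had no count in DKD replicate 1 or in any control, and Ucp1 had 44 and 812 counts in DKD replicates 2 and 3. For 10 endothelial markers the level was 0.16, 0.50 and 0.64 in DKD and -0.08, -0.0029 and 0.09 in control kidneys, with sums of 359 to 477 CPM in DKD and 320 to 355 CPM in control kidneys. Unlike for the chemokine genes, DKD replicate 1 lay above every control there. The same held for the lymphatic endothelial list, the fibroblast and mural list and the podocyte list. For the hepatocyte list the level was 5.00, 1.16 and 1.31 in DKD and 0.71, -0.47 and -0.24 in control kidneys. The part of leukocyte number and of hepatocyte, adipocyte and endothelial RNA in the chemokine values was not tested. No chemokine receptor is among these markers.

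**Figure D4:**
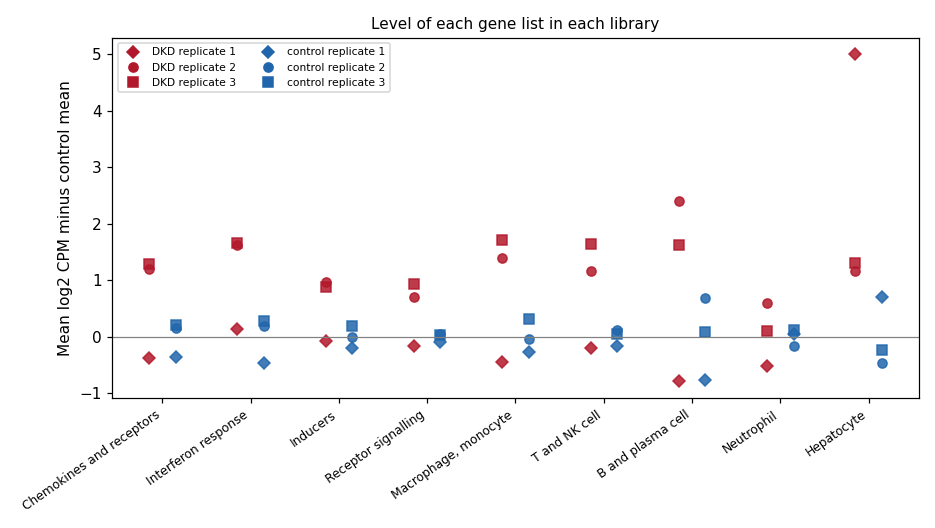
Level of each gene list in each library, as mean log2 CPM of its tested genes minus the control mean, with DKD libraries left of controls. DKD replicates 2 and 3 are at 1.20 and 1.29 for the chemokine and receptor genes, 1.39 and 1.72 for the macrophage list and 1.16 and 1.64 for the T and NK cell list. The hepatocyte list is at 5.00 in DKD replicate 1 and at 1.16 and 1.31 in DKD replicates 2 and 3.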

How the data were processed

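Whole kidney RNA of 3 DKD and 3 control libraries (poly(A)-selected, strand-marked with dUTP, paired-end) was analysed from 1 table of raw read counts per Ensembl gene deposited by the authors. Per the submitters' processing notes, the tools were HISAT2, StringTie, fastp and edgeR and the build was GRCm39. The sources used here do not give their versions and roles, the annotation or the strand setting. Symbols came from a reference of GRCm38 (55141 of 55401 IDs matched), also used for exon lengths, overlaps and gene order.

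In R 4.3.3, edgeR 4.0.16 (quasi-likelihood, robust, two-sided, TMM factors, default low count filter, Benjamini-Hochberg over 19197 genes, threshold 0.05) was fitted to all genes, with group as the only term. Alternatives were DESeq2 1.42.0, RLE factors, unscaled library sizes, limma-voom (limma 3.58.1) with sample quality weights, other filters, a replicate block and leaving out each library. Log2 CPM used a prior count of 2. The tests were checked on simulated counts. Members with a mean of at least 0.5 CPM are given by library, except 1 that is not reported here and enters only the summary counts, and list genes named are those with the smallest p, or were chosen after their values were seen. The members and lists were chosen with earlier results of these data known. Limits from a count of 0 cover counting error only. No pair of libraries in a group agreed within sampling noise.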

Additional observations from a re-analysis of the deposited data

How the results depend on the processing

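With edgeR on all libraries, 0 chemokine and receptor genes and 0 genes in all were called, also with RLE factors, library size alone, a filter of CPM 1 in 3 libraries and the replicate block. DESeq2 called 7 members and 1749 genes in all, limma-voom with quality weights called 8 and 3397, and edgeR without a filter called 0 and 4. Leaving out single libraries gave 0 to 16 members and 0 to 3101 genes, with the highest counts without DKD replicate 1, and a median member difference of 0.42 (without DKD replicate 2) to 1.19 (without DKD replicate 1), against 0.78. Library size alone moved the median of all genes to 0.17, and the median of the members was then 0.94. The cause of these changes was not tested.

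Over the 30 members with a mean of at least 0.5 CPM, 331 of the alternative values kept direction and side of the threshold, 29 passed it, and 22 in 8 genes turned direction. With library size alone Ccl25 turned to 0.08, Ccl28 to 0.18, Ackr3 to 0.0095 and Ccrl2 to 0.15. With limma-voom Ccl28 turned to 0.99, Cxcl12 to -0.094 and Ccrl2 to 0.27. Ccl28 gave 0.0079 without a filter and 0.22 with the replicate block, and with the CPM filter Ccl28 gave 0.018 and Ccrl2 0.0039. Leaving out libraries gave -0.20 to 0.016 for Ccl25, -0.0044 to 0.20 for Ccl27a, -0.51 to 0.91 for Ccl28, -0.14 to 0.29 for Cxcl12, -1.09 to 0.26 for Ccr1, -0.12 to 1.02 for Cxcr6, -0.45 to 0.066 for Ackr3 and -0.25 to 0.22 for Ccrl2. Same-numbered DKD and control libraries had correlations of deviations of 0.034, 0.023 and 0.034, against -0.0299 to 0.0006 for libraries of unlike number. All are small, and deviations within groups of 3 cannot decide whether the numbers pair the libraries. The block left the count of calls at 0, which was also the count without it. The 16 genes that had counts but did not pass the low count filter were tested with all libraries only in the fit without a filter. That fit called 0 members.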
